A study of Mus musculus with 16 samples.

Results

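The cells described here are memory-type CD8 T cells that carried Ccl5 mRNA in mice that had accepted a kidney allograft, from recipient spleens and from 1 spleen-like matrix labelled kidney graft. The cells were chosen by measured values: a cell was taken when its droplet held at least 1 unique molecular identifier (UMI, a counted mRNA molecule) of Ccl5, at least 1 UMI of Cd8a or Cd8b1, and no UMI of Cd4, Cd79a or Lyz2. Of the 21837 cells in 3 deposited CD8 T cell matrices, 8115 passed the CD8 gate and 2569 of these were Ccl5-positive. They came from recipient spleen at 1 week (1599 of 4069 gated cells), recipient spleen at 3 weeks (667 of 2324) and the matrix labelled accepted kidney graft at 24 weeks (303 of 1722). All 9 CD8 matrices of the study together held 72639 cells.

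The accepting recipients were C57BL/6J mice, wild type by the labels, that had received a fully mismatched DBA/2J kidney without immunosuppression. Viable CD45+ cells were sorted and sequenced on the 10x 3′ droplet platform, and the matrices are those deposited as CD8 T cells. They differed in what they held: 34.2%, 39.5% and 42.7% of cells passed the CD8 gate in the files of 1 week, 3 weeks and labelled 24-week kidney, against 90.7% in naive spleen, so the recipient files were compared with a control of another make-up, within the gate. Spleens of mice that had no transplant, labelled naive spleen with the same strain and genotype, gave the control: 746 of 4248 gated cells were Ccl5-positive. Library tags in the cell barcodes divided the files into 3 libraries at 1 week, 5 at 3 weeks, 3 in the file labelled 24-week kidney and 5 in naive spleen. Each tag was taken as 1 mouse, which matches the replicate numbers in the study's methods for the recipients, and nothing in the labels ties a tag to an animal. The study examined male mice.

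Both labels at 24 weeks stood apart from the other files of their tissue. Ccl5-positive cells made up 71.5% of gated cells in the accepted kidneys at 1 week and 97.9% at 3 weeks (means over libraries). They made up 38.9% and 28.8% in the recipient spleens at 1 week and 3 weeks, and 96.0% in the libraries labelled 24-week recipient spleen. In the libraries labelled 24-week accepted kidney the share was 17.6%, next to 17.6% in naive spleen. Kidney parenchyma genes were read only where the compared files, naive spleen among them, shared them, which left 8. Of these, Slc34a1, Gpx3, Fxyd2, Aqp1, Ttc36 and Guca2b were at 0 in Ccl5-positive cells of the libraries labelled 24-week kidney. Their sum there thus rests on 2 genes. It was 28.0 to 40.1 CPM (UMIs of a gene per 1000000 UMIs of all genes in a library and class). It spanned 16.98 to 42.02 CPM in the 1-week and 3-week spleens. The list was not summed in the accepted kidneys of 1 week and 3 weeks, so these sums cannot tell kidney from spleen. The file labelled 24-week kidney was taken in for being spleen-like, so its share is given without a test, and it is named by its label throughout. Whether the labels of kidney and spleen were exchanged at 24 weeks was not tested, and each 24-week value below is given under its label.

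Ccl5 (also called RANTES) is a chemokine that draws T cells and monocytes to sites of inflammation. Resting naive CD8 cells make little of it, whereas memory CD8 cells keep Ccl5 mRNA in store and release the protein soon after they meet antigen. In mice, memory CD8 cells are recognised by CD44 and by CD122, the interleukin-2 and interleukin-15 receptor chain encoded by Il2rb. A subset of CD122+ memory cells carries Ly49 receptors (the Klra genes) and the transcription factor Helios (Ikzf2), and has been described as regulatory. Ccl5 lies on mouse chromosome 11 at 83525778 to 83530518 (GRCm38.p6).

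Pooled over the recipient libraries, the cells matched the name in their markers, more so with more Ccl5 UMIs. Among gated recipient cells with no Ccl5 UMI, 18.7% of 5546 held an Il2rb UMI and 3.61% a Cd44 UMI. In the 411 cells just inside the rule, with 1 Ccl5 UMI, the shares were 29.2% and 7.06%. They were 41.9% and 16.9% in the 136 cells with 2 UMIs, 58.1% and 22.2% in the 454 cells with 3 to 9, and 67.4% and 26.1% in the 1568 cells with 10 or more. Lef1, a factor of naive T cells, ran the other way, from 75.5% of cells with no Ccl5 UMI to 45.7% of cells with 10 or more. Single libraries, with few cells at 1 or 2 Ccl5 UMIs, did not all follow this order. In 1-week library 1 Il2rb was held by 12.9%, 16.2% and 13.3% of cells with 0, 1 and 2 Ccl5 UMIs, and in 3-week library 5 by 42.9% of cells with 1 and 12.5% with 2. No test was made on these values, since Ccl5 divided the cells and Il2rb and Cd44 named them. Cells without Ccl5 were shallower in UMIs, and they can include memory cells whose Ccl5 was missed.

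Depth and stray RNA set how far a single UMI can be read. Ccl5-positive cells held a median of 2124 to 7591 UMIs per cell over the 11 recipient libraries and their Ccl5-negative neighbours 1946 to 5843. The 1-week libraries were the shallowest. CD4 cells that held no Cd8a or Cd8b1 UMI carried a Ccl5 UMI in 16.7% to 23.3% of cells at 1 week, 6.16% to 11.6% at 3 weeks and 5.93% to 12.6% in the libraries labelled 24-week kidney. B cells of naive spleen, which should lack the gene, did so in 583 of 27426 cells, 2.13% (exact binomial 95% interval 1.96% to 2.30%, counting error only), at a median of 2750 UMIs. That share is no floor for the recipients. In their own matrices, cells with a Cd79a UMI and no Cd8a or Cd8b1 UMI carried Ccl5 in 25.1% to 34.4% at 1 week, 16.7% to 31.1% at 3 weeks and 33.3% to 57.1% in the libraries labelled 24-week kidney. These ranges overlap or exceed those of gated CD8 cells, and what these droplets hold was not tested, so the shares below are of cells with a Ccl5 UMI and not of cells that express it. Libraries shared at most 0.631% of their cell barcodes.

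The mean share of gated CD8 cells that were Ccl5-positive was highest in spleens 1 week after transplantation. It was lowest in naive spleen and in the libraries labelled 24-week kidney, which were not tested. Of the 3 tests below, only that of 3 weeks against naive spleen passed after adjustment. At 1 week the libraries stood at 29.7%, 41.7% and 45.5%, a mean of 38.9% ± 8.26 (SD, n = 3). At 3 weeks they stood at 32.2%, 26.5%, 27.3%, 29.0% and 28.8%, a mean of 28.8% ± 2.21 (SD, n = 5). The libraries labelled 24-week kidney gave 17.8%, 20.3% and 14.9%, and naive spleen gave 16.1%, 15.8%, 20.2%, 15.6% and 20.3%, a mean of 17.6% ± 2.42 (SD, n = 5). Neither recipient spleen group overlapped naive spleen, while 1 of the 1-week libraries lay inside the range of the 3-week libraries.

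The 3-week share exceeded the naive share by 11.2 percentage points (exact two-sided permutation test over libraries, p = 0.00794, the smallest that 5 against 5 allows; 0.0238 adjusted over 3 tests). The 1-week share exceeded it by 21.3 points (exact permutation p = 0.0357, again the smallest possible, adjusted 0.0536). The 3-week mean was below the 1-week mean by 10.2 points (a difference of -10.2), with overlapping libraries (exact permutation p = 0.0714, adjusted 0.0714, where 0.0357 was the smallest possible). With each cell thinned to 1000 UMIs the means were 30.3%, 20.5%, 11.6% and 11.2% in the order above. Of the gated cells, 25 at 1 week and 4 at 3 weeks were below that depth and were left out. The file of naive spleen held 37 such CD4 cells, 6 of them with Ccl5, so stray RNA could not be set side by side in that way there, and its part in the differences was not tested.

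**Figure D1:**
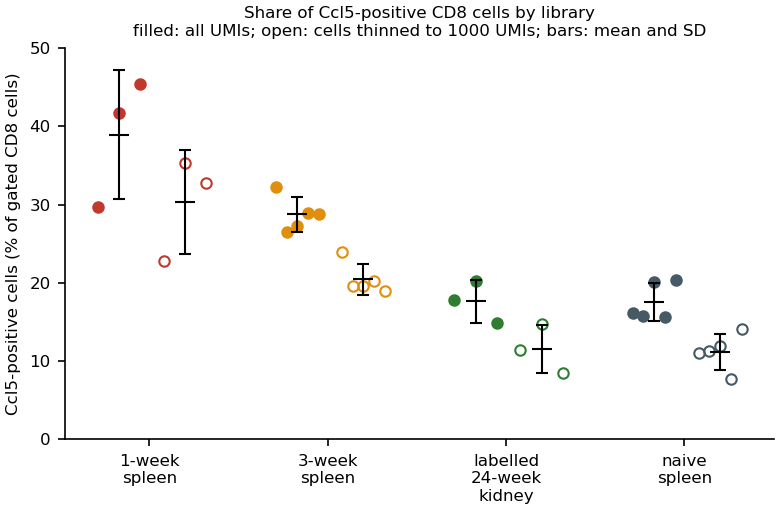
Ccl5-positive cells as a percentage of gated CD8 cells (vertical axis) in each library (points) of the 1-week spleen, 3-week spleen, labelled 24-week kidney and naive spleen groups, with group means as lines. In the filled points the 1-week libraries spread from 29.7% to 45.5%, and no recipient spleen library at 1 or 3 weeks was as low as the highest naive library at 20.3%.

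The amount of Ccl5 per positive cell varied by group as well. The library medians were 12 to 14 Ccl5 UMIs per positive cell at 1 week, 14 to 29 at 3 weeks, 18 to 36 in the libraries labelled 24-week kidney, and 5 to 8 in naive spleen. These medians are not corrected for depth, and the 1-week cells were the shallowest. As a share of UMIs in positive cells, Ccl5 took a mean of 0.715% at 1 week and 0.562% at 3 weeks. It took 0.706% in the libraries labelled 24-week kidney and 0.312% in naive spleen. The order of 1 week and 3 weeks thus turned. Among these 4 groups the 1-week spleens had the largest mean share of positive cells and the naive spleens the lowest level in a positive cell. These values come from the gene that defined the cells and carry no test.

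Ccl5-positive cells were next set against Ccl5-negative CD8 cells of the same library, with counts summed per library and class. Because Ccl5 in the same droplets made the classes, genes that go with Ccl5 had to differ, and the counts below describe the division. In edgeR's quasi-likelihood fit with library as a block, 1156 of 8669 genes were higher in Ccl5-positive cells of the recipients (13.3%) and 629 were lower (7.26%), 20.6% in all, at a Benjamini-Hochberg adjusted p below 0.05. TMM scaling gave 938 higher and 787 lower. Of all tested genes 5.68% were higher, and 2.2% lower, in every one of the 11 recipient libraries. File by file 17.5% of genes were called at 1 week, 11.2% at 3 weeks, 7.77% in the libraries labelled 24-week kidney and 11.3% in naive spleen. DESeq2 called 593 genes at 1 week, against 1517 by edgeR, and 629 at 3 weeks, so the order of those files turned. In all, 318 genes were higher in each of the 3 recipient files, and 274 of these were higher in naive spleen too.

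Effector molecules were among the genes that were higher. The list of chemokines and cytokines had 7 of 11 members with enough counts to test, and 6 were higher, with a median log2 difference of 3.83 against 0.04 over all genes tested. Ccl4, another chemokine of the same family, stood at 111, 64.6 and 63.6 CPM at 1 week, at 36.2, 33.8, 51.9, 46.9 and 33.3 CPM at 3 weeks, and at 50.6, 67.5 and 23.7 CPM in the libraries labelled 24-week kidney. Ccl5-negative cells of those 11 libraries held at most 6.16 CPM, so the classes did not overlap, and the log2 difference was 5.12 ± 0.20 (SE). Ifng, the cytokine interferon gamma, and Fasl, a death ligand, were higher by 4.80 ± 0.27 and 3.83 ± 0.29 log2 units.

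Of 15 cytotoxic granule genes, 14 were higher. Gzmm, a granzyme of innate-like killer cells, stood at 57.9 to 87.6 CPM at 1 week, 61.1 to 98.0 CPM at 3 weeks, 43.0 to 60.4 CPM in the libraries labelled 24-week kidney and 61.0 to 103 CPM in naive spleen, with at most 5.32 CPM in negative cells. Prf1, which encodes the pore former perforin, differed by 0.87 ± 0.09 log2 units, and negative cells carried it at 24.7 to 58.3 CPM. The granzymes Gzma and Gzmb differed by 6.13 ± 0.17 and 3.99 ± 0.28 log2 units. Ctsc was the member that did not pass.

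Receptors of the natural killer (NK) lectin families had the highest median of the lists. All 13 of 17 members that could be tested were higher, with a median log2 difference of 4.42. The Klra genes are near-identical copies, so the division of reads among them is uncertain. The fitted log2 differences were 7.80 ± 0.24 for Klra7 and 6.49 ± 0.22 for Klre1, and rest in part on a prior count because negative cells held almost none. Klra7 counts in negative cells were 4 UMIs over the 1-week libraries, 3 over the 3-week libraries and 0 in the libraries labelled 24-week kidney. In the last, the pooled level was at least 157-fold higher in positive cells (116 UMIs, floor of 3 UMIs over the group).

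Transcription factors of memory and effector cells moved with Ccl5, and 13 of 14 were higher. Tbx21 (T-bet) differed by 3.82 ± 0.20 log2 units, Eomes by 1.73 ± 0.09 and Zeb2 by 4.37 ± 0.27. Among 21 homing genes tested, 16 were higher and 5 lower. Higher members included Cxcr3 and Cx3cr1, receptors for inflammatory chemokines, and Ly6c2 at 2.00 ± 0.04 log2 units. The lower members were Ccr7 and S1pr1, which serve passage through lymphoid tissue, and Ccr9, Itgae and Itgb7, which serve homing to and holding in the gut.

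Genes of naive T cells mostly ran opposite, with 12 of 18 lower and the rest higher or not called. Ccr9 was lower by 2.70 ± 0.12 log2 units, Igfbp4 by 2.31 ± 0.09, Dapl1 by 1.08 ± 0.04 and Lef1 by 1.0 ± 0.04 (values of positive minus negative cells: -2.70, -2.31, -1.08 and -1.0). Lef1 stood at 258, 224 and 211 CPM in positive cells at 1 week, against 384 to 445 CPM in negative cells. Tcf7, the partner of Lef1 that memory cells retain, differed by -0.17 ± 0.04 only. Il7r, the interleukin-7 receptor chain on which memory cells depend, is a member of this naive list too and was higher by 0.33 ± 0.03 log2 units.

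Of 15 S100, galectin and annexin genes tested, 13 were higher and 1 lower, with a median log2 difference of 0.69. Their sum was 7253 to 10938 CPM in positive and 2715 to 5201 CPM in negative cells at 1 week, 3033 to 3894 and 1918 to 2445 CPM at 3 weeks, and 3237 to 3641 and 2017 to 2065 CPM in the libraries labelled 24-week kidney, without overlap in any of these files. Among inhibitory receptors 5 of 9 were higher, and Pdcd1 (PD-1) and Lag3 stayed low, at 0 to 14.8 and 0 to 16.3 CPM in positive cells of the recipients. Tox, a factor of exhausted cells, differed by 0.12 ± 0.09 log2 units and did not pass. Of the regulatory list, Fgl2 and Ikzf2 were higher among 6 tested, Fgl2 at 0 to 15.8 CPM. In the Bcl-2 family 8 of 12 were higher, among them the survival factor Bcl2 at 0.65 ± 0.04 and its antagonist Bcl2l11 (Bim) at 0.78 ± 0.10 log2 units.

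**Figure D2:**
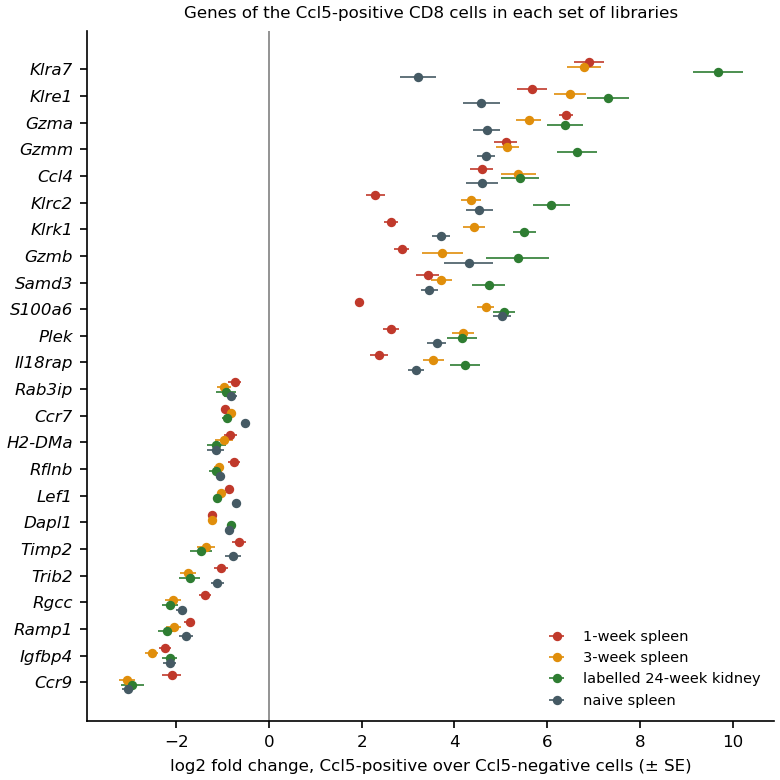
Log2 difference between Ccl5-positive and Ccl5-negative CD8 cells (horizontal axis, bars are SE) for the 24 genes named by rule. Each gene has a point for the 1-week spleen, 3-week spleen, labelled 24-week kidney and naive spleen groups. The mean of the 3 recipient files is not drawn. By that mean the 12 higher genes run from Il18rap at 3.38 to Klra7 at 7.80, and the 12 lower genes from Rab3ip at -0.88 to Ccr9 at -2.70.

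Transcripts of other cells were read beside these values. None of 12 B cell genes was higher, and their sum spanned 273 to 665 CPM in positive and 296 to 640 CPM in negative cells of the recipients. The 10-gene NK list shares members with the receptors above, and 8 of 8 tested genes were higher, with sums of 219 to 681 CPM in positive and 25.0 to 58.5 CPM in negative cells. A UMI of Ncr1, Klrb1c or Trdc, which mark NK or gamma-delta T cells, was found in 5.28%, 8.29% and 5.95% of positive cells at 1 week, 3 weeks and in the libraries labelled 24-week kidney, and in 2.86% in naive spleen. All 4 gamma-delta T cell genes tested were higher, and that list summed to 35.0 to 69.4 CPM in positive and 7.0 to 25.8 CPM in negative cells. Of 4 genes of CD4 and regulatory cells tested, Ikzf2 and Cd5 were higher and Izumo1r lower, with list sums of 209 to 337 CPM in positive and 145 to 207 CPM in negative cells. Of 7 myeloid genes tested, Fcer1g, Tyrobp and Cst3 were higher and Ctss lower. The myeloid list summed to 259 to 321 CPM in positive and 229 to 248 CPM in negative cells at 1 week, 173 to 295 and 148 to 217 CPM at 3 weeks, and 222 to 247 and 146 to 157 CPM in the libraries labelled 24-week kidney. Without cells holding an Ncr1, Klrb1c or Trdc UMI, 11 of 11 NK lectin receptors were still higher, with a median log2 difference of 4.54. Ribosomal genes took 32.4% of UMIs in positive and 37.4% in negative cells at 1 week. The part of these values in the result was not tested.

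Promoters of the genes that were higher were read from RefSeq (GRCm38.p6) for letters bound by factors of this cell type, chosen after the values were known. The 250 bases upstream of annotated starts were searched on both strands for GGTGTGA (T-box factors), TGTGGTT (Runx factors), TGACTCA (AP-1) and CTTTGAA (Tcf and Lef factors). Of 243 genes at least 2-fold higher in positive cells, 189 matched, with 235 promoters. GGTGTGA was present in 5.96% of them, TGTGGTT in 7.66%, TGACTCA in 8.94% and CTTTGAA in 4.26%. In 8753 promoters of all tested genes the shares were 2.63%, 3.26%, 2.79% and 3.14%. In all 32851 promoters of the reference, tested or not, they were 3.33%, 4.40%, 4.46% and 4.46%. CTTTGAA in the higher genes was thus above the first background and below the second. In 249 promoters of genes lower by at least 0.5 log2 units they were 1.20%, 3.61%, 3.21% and 3.61%. A match is a description of letters and not a site. No entry was present for Ccl5, Il2rb and Ccl4.

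The promoters of Samd3, Gzma, Gzmb, Klrk1 and S100a6 are shown as chosen examples, with matches in capitals. These genes were among the most distinct of the positive cells, and each holds T-box, Runx or AP-1 letters. Other higher genes named by the same rule differed. Klra7, before 1 of its starts, and Il18rap hold only CTTTGAA, the Tcf and Lef letters. Klre1 holds TGTGGTT and Gzmm holds GGTGTGA, each before 1 annotated start and not before the other. Klrc2 and Plek hold no match. Each printed sequence is the 250 bases before 1 annotated start, 5′ to 3′ on the gene's strand. In Samd3 (chr10:26229457-26229706, plus strand) the match is GGTGTGA, read as TCACACC on the printed strand and starting at -15. Gzma (chr13:113100982-113101231, minus strand) holds TGTGGTT, read as AACCACA, at -51. Gzmb (chr14:56262335-56262584, minus strand) holds TGTGGTT at -34 and TGACTCA, read as TGAGTCA, at -58. Klrk1 (chr6:129623865-129624114, minus strand) holds TGTGGTT at -129, and S100a6 (chr3:90612644-90612893, plus strand) holds it at -79.
Samd3: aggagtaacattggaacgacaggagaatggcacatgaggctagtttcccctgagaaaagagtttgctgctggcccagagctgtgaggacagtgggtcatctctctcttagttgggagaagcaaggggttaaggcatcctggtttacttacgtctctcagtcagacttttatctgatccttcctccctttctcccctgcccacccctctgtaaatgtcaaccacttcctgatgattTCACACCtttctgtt
Gzma: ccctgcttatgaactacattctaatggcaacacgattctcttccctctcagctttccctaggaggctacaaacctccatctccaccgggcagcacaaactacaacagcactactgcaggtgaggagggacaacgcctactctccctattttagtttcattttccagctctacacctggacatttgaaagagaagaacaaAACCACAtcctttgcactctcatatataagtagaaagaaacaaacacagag
Gzmb: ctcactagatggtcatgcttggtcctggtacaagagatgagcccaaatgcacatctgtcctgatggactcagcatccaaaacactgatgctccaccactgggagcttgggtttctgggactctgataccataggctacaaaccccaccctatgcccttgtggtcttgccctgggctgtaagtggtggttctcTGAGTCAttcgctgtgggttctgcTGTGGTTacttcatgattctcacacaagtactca
Klrk1: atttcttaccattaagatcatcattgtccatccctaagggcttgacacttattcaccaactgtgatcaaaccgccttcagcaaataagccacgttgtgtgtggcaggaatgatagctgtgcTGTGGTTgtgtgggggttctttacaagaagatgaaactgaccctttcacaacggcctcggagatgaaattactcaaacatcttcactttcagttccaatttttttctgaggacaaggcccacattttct
S100a6: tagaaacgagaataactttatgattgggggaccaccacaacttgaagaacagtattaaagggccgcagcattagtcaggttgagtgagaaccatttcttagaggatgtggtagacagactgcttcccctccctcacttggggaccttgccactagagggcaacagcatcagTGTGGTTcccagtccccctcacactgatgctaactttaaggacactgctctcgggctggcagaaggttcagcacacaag

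Ccl5-positive cells were then compared between files, which differ in week, in mice and in any batch, so these cannot be told apart. The file labelled 24-week kidney differs from 3-week spleen in labelled tissue as well. The 4 comparisons come from 1 fit of the positive cells (7063 genes) and share groups with each other. Between 3 weeks and 1 week 1712 genes were higher (24.2%) and 1145 lower (16.2%), 40.5% in all. TMM scaling moved the median of all genes by -0.12 and gave 1238 higher and 1483 lower, so the balance of directions is not a result. Genes whose libraries did not overlap made up 33.3% of all tested. Signs of RNA quality differed with the file: in positive cells ribosomal genes took 31.8% to 32.9% of UMIs at 1 week and 36.0% to 38.8% at 3 weeks, mitochondrial genes 5.49% to 6.15% and 3.83% to 5.04%, and the means of the median UMIs per cell were 3024 and 4926. Their part in the result was not tested.

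One week after transplantation the positive cells carried more transcripts of dividing cells than at 3 weeks. Of 14 cell cycle genes tested, 11 fell from 1 week to 3 weeks, with a median of -3.13 log2 units, and the same number was higher at 1 week than in naive spleen, where 18.4% of all genes were. Mki67, a protein of dividing nuclei, stood at 77.1, 68.4 and 149 CPM at 1 week and at 2.26, 5.88, 4.86, 0 and 7.0 CPM at 3 weeks. The log2 change was -4.66 ± 0.36 (SE). Histone H1 gene Hist1h1b went from 319, 370 and 853 CPM to between 2.26 and 11.3 CPM, a change of -6.14 ± 0.30. Birc5 (survivin) and the ubiquitin conjugating enzyme Ube2c of mitosis fell by 5.54 ± 0.40 and 5.39 ± 0.38 log2 units. An Mki67 UMI was found in 5.33%, 4.74% and 13.6% of positive cells in the 1-week libraries, a mean of 7.89% raised by the third of them, and in 0% to 3.08% at 3 weeks, a mean of 1.60%. These are shares of cells with a UMI, and dividing cells whose Mki67 was missed are not in them. Thinned to 1000 UMIs per cell the means were 3.78% and 0.443%.

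Cytotoxic molecules were split between members. Gzmb stood at 91.6, 103 and 185 CPM at 1 week and at 4.86 to 27.2 CPM at 3 weeks, and fell by 2.95 ± 0.28 log2 units. Gzma fell by 1.99 ± 0.34 with wide spread at 3 weeks, where the libraries read 50.9, 282, 14.6, 150 and 68.3 CPM. The 1-week libraries read 504, 397 and 443 CPM and lay above every one of these. Gzmk, Srgn, Serpinb6b and Nkg7 fell too. In contrast, Prf1 rose from 48.8, 53.0 and 40.6 CPM to 65.7 to 96.3 CPM, by 0.82 ± 0.17, and Gzmm at 0.17 ± 0.16 did not pass. Of 15 cytotoxic granule genes, 6 fell and 1 rose under plain totals, and 8 fell and 1 rose under TMM. The summed NK list went from 590 to 681 CPM in positive cells at 1 week to 219 to 531 CPM at 3 weeks, without overlap, and its part in these falls was not tested.

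Calcium-binding S100 proteins, galectins and annexins, which rise when T cells are activated, moved almost as 1 group. Of 15 tested, 13 fell from 1 week to 3 weeks (median -1.34), and 14 were higher at 1 week than in naive spleen (median 1.67, with 18.4% of all genes higher). S100a4 stood at 830, 949 and 1005 CPM at 1 week, at 63.2 to 123 CPM at 3 weeks and at 17.6 to 90.1 CPM in naive spleen. Its fall was 3.39 ± 0.19 log2 units. Lgals3 (galectin-3) stood at 334, 441 and 523 CPM at 1 week and at 10.5 to 38.5 CPM at 3 weeks. At 3 weeks 5 of the 15 were higher than in naive spleen (2.15% of all genes were), Lgals3, Anxa2, S100a6, Lgals1 and Ahnak.

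Ifitm1, which encodes an interferon-induced membrane protein, was close to absent outside the 1-week cells. Its level was 148, 259 and 191 CPM at 1 week. At 3 weeks 1 UMI was counted over 5 libraries, none in the libraries labelled 24-week kidney and 4 in naive spleen. The pooled ratio of 1 week to 3 weeks was 651 (95% counting interval 117 to 25725). Other interferon-stimulated genes were less uniform, and 6 of 14 fell to 3 weeks (7 under TMM). In Ccl5-negative cells of the 1-week libraries Ifitm1 reached 8.04 CPM at most.

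Members of the cytokine receptor and naive gene lists moved the other way, in a comparison where the balance of directions depended on scaling. Of 13 cytokine receptors, 9 were higher at 3 weeks than at 1 week (6 under TMM). Of all 7063 genes 24.2% were higher, and 1238 under TMM. Il7r rose from 301, 342 and 485 CPM to 735, 800, 639, 478 and 735 CPM, by 0.84 ± 0.12 log2 units, with 1 library at 3 weeks inside the 1-week range. Bcl2 rose from 284 to 307 CPM up to 663 to 774 CPM, by 1.24 ± 0.11, and the groups did not overlap. Of 18 naive T cell genes, 12 rose and 2 fell, where 24.2% of all genes rose and 16.2% fell. Il7r belongs to both lists, and no count under TMM is given for the naive genes. Lef1, at 0.18 ± 0.11, did not pass.

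**Figure D3:**
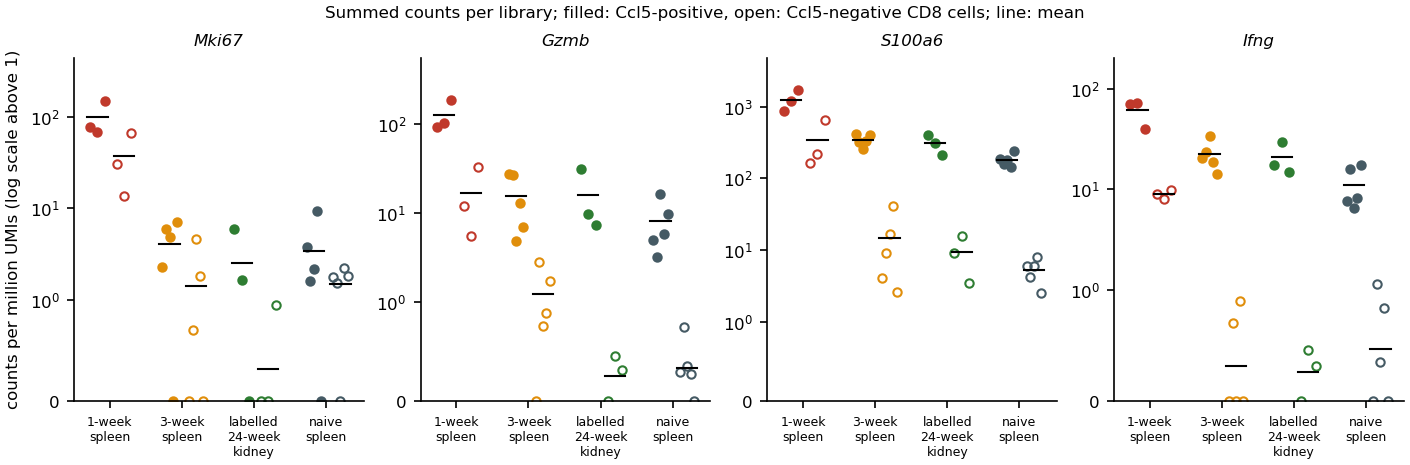
Level of Mki67, Gzmb, S100a6 and Ifng in CPM (vertical axis, log scale above 1) per library for Ccl5-positive (filled) and Ccl5-negative (open) CD8 cells in 4 groups, lines are means. Positive cells at 1 week lie above all other positive libraries for each gene, and negative cells at 1 week are also raised.

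Against naive spleen, 1-week positive cells differed in 43.7% of genes, with 1299 higher (18.4%) and 1790 lower (25.3%). TMM moved the median of all genes by 0.11 and gave 1591 higher and 1356 lower. The libraries did not overlap in 38.0% of genes. Of 11 NK lectin receptors, 11 were higher, with a median of 1.63 log2 units, and 9 of 9 without cells holding an Ncr1, Klrb1c or Trdc UMI. Of 15 immediate early genes, which also respond to tissue handling, 12 were higher. B cell genes moved too, with 5 of 7 higher, among them Cd74 at 67.7, 115 and 37.4 CPM against 14.4 to 45.5 CPM in naive spleen, with 1 library inside that range. The B cell sums were 357 to 601 CPM at 1 week and 299 to 453 CPM in naive spleen, the myeloid sums 259 to 321 and 108 to 197 CPM, and the NK sums 590 to 681 and 135 to 255 CPM. In positive cells of naive spleen ribosomal genes took 36.7% to 40.6% of UMIs and mitochondrial genes 3.95% to 4.96%, with a mean of the median UMIs per cell of 5485, so the 1-week libraries lay outside the naive range in both shares. The part of these values in the result was not tested.

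By 3 weeks far fewer genes separated the positive cells from those of naive spleen, with 152 higher (2.15%) and 55 lower (0.779%), 2.93% in all. The libraries did not overlap in 4.29% of genes. Of 11 NK lectin receptors 7 were higher and none lower, with a median of 1.59 log2 units against 0.01 over all genes. The summed gamma-delta T cell list was 47.5 to 69.4 CPM in positive cells at 3 weeks and 36.0 to 55.1 CPM at 1 week, against 12.6 to 30.6 CPM in naive spleen, without overlap with naive spleen, and its part in the result was not tested. Cell cycle and interferon lists had no call by edgeR among 14 genes each. Receptors of the NK lectin families and Ikzf2 were among the genes with the largest differences by the naming rule.

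Klra7, of the Ly49 family, stood at 52.1, 38.2, 47.0, 65.7 and 99.8 CPM at 3 weeks and at 8.82, 6.42, 13.1, 9.34 and 17.3 CPM in naive spleen. The lowest 3-week library was above the highest naive one. The log2 difference was 2.38 ± 0.26 (SE; edgeR adjusted p = 9.0e-09). At 1 week the libraries read 70.2, 64.6 and 96.4 CPM, and in the libraries labelled 24-week kidney 68.1, 59.3 and 66.8 CPM. Neighbouring recipient groups did not pass the test, at -0.42 ± 0.18 for 3 weeks against 1 week and 0.13 ± 0.22 for the labelled 24-week libraries against 3 weeks. Klra7 lies on chromosome 6 at 130218605 to 130233322.

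Klre1, which pairs with other NK lectins to form inhibitory or activating receptors, stood at 78.1, 66.1, 47.0, 67.6 and 35.0 CPM at 3 weeks against 25.2, 14.4, 4.37, 11.7 and 24.7 CPM in naive spleen. Its log2 difference was 1.92 ± 0.25. Klra1 and Klra6 followed at 3.90 ± 0.50 and 1.77 ± 0.30, and Klrc2 at 1.59 ± 0.17. Klra1 counts in naive spleen were 7 UMIs in all. Klrk1 (NKG2D) and Klrd1 (CD94), at 0.47 ± 0.18 and -0.11 ± 0.11, did not pass.

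Ikzf2, on chromosome 1 at 69531207 to 69687351, encodes Helios. Its level was 108, 104, 105, 116 and 105 CPM at 3 weeks and 18.9, 25.7, 53.5, 33.8 and 32.1 CPM in naive spleen, with no overlap. The log2 difference was 1.68 ± 0.16 (edgeR adjusted p = 1.0e-09). The 1-week libraries read 72.8, 86.9 and 94.6 CPM and the libraries labelled 24-week kidney 91.5, 98.8 and 80.1 CPM, so all 11 recipient libraries lay above all 5 naive ones. Against naive spleen, libraries did not overlap in 38.0% of all genes at 1 week and in 4.29% at 3 weeks. The share of all genes that separate all recipient libraries from naive spleen was not counted. No test set the labelled 24-week libraries against naive spleen. Without cells holding an Ncr1, Klrb1c or Trdc UMI the differences at 3 weeks were 2.21 for Klra7, 1.59 for Klre1 and 1.52 for Ikzf2.

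Fcer1g, an adaptor of activating receptors on NK and myeloid cells, stood at 12.5, 32.3, 11.3, 46.9 and 24.5 CPM at 3 weeks and at 1.26, 0, 2.18, 0 and 2.47 CPM in naive spleen. It was higher by 4.14 ± 0.54 log2 units, and the related adaptor Tyrobp by 2.51 ± 0.47. Both belong to the myeloid and NK lists. Of the 6 myeloid genes tested they were the 2 that passed. The summed myeloid list was 173 to 295 CPM at 3 weeks (mean 215) and 108 to 197 CPM in naive spleen (mean 157), with Lyz1 at 0 in both and Csf1r at 0 at 3 weeks. The summed NK list was 219 to 531 CPM at 3 weeks and 135 to 255 CPM in naive spleen. Their part in the result was not tested.

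**Figure D4:**
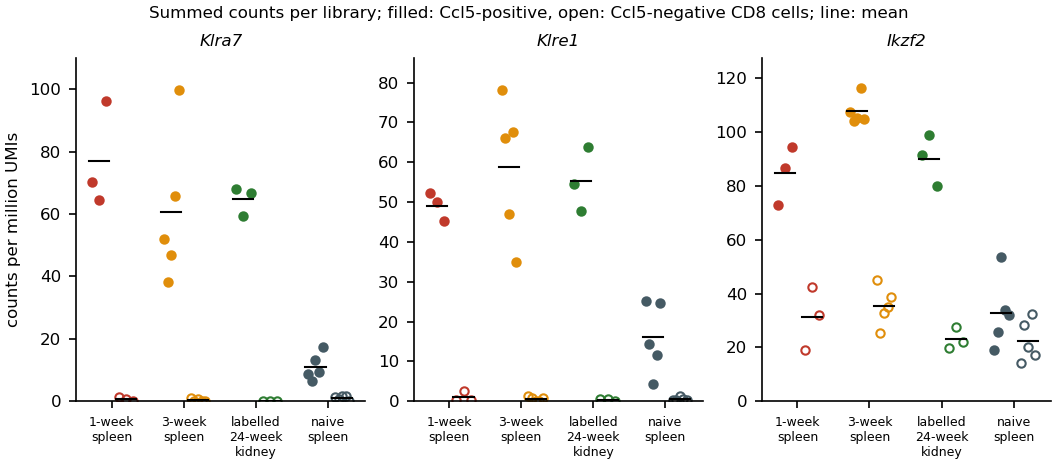
Level of Klra7, Klre1 and Ikzf2 in CPM (vertical axis) per library for Ccl5-positive (filled) and Ccl5-negative (open) CD8 cells of the 4 groups, lines are means. For Klra7 and Ikzf2 every recipient library of positive cells lies above every naive library, and Klra7 is near 0 in negative cells. The share of all genes with this separation was not counted.

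Genes that were higher at 3 weeks than in naive spleen also included Dusp1 and Dusp5, phosphatases that dampen MAP kinase signals, which differed by 2.16 ± 0.23 and 1.64 ± 0.17, and Tnfaip3 (A20), a brake on NF-kB, by 1.89 ± 0.17. The factors Maf, Bhlhe40 and Id2 differed by 2.33 ± 0.50, 1.74 ± 0.38 and 0.74 ± 0.14. Among the genes that were lower, Id3, a factor linked to long-lived memory, stood at 37.4, 44.1, 47.0, 16.9 and 17.5 CPM against 55.4 to 130 CPM, a difference of -1.46 ± 0.20. The receptor genes Il27ra and Clec2d differed by -0.69 ± 0.14 and -0.68 ± 0.13. Dusp1 at 66.9 to 88.6 CPM in Ccl5-negative cells at 3 weeks, against 16.3 to 25.8 CPM in naive spleen, did not overlap there either. The 15 immediate early genes summed to 2436 to 2897 CPM in positive cells at 3 weeks against 1550 to 1966 CPM in naive spleen, and to 2505 to 3134 against 1605 to 1987 CPM in negative cells, without overlap in either class, and 3 of the 15 passed as higher in positive cells. Their part in these differences was not tested.

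Libraries labelled 24-week kidney were set against 3-week spleen last. There 229 genes were higher (3.24%) and 823 lower (11.7%), 14.9% in all, and the libraries did not overlap in 18.4%, but TMM moved the median of all genes by 0.20 and gave 572 higher and 335 lower. In positive cells mitochondrial genes took 5.37% to 5.49% of UMIs there against 3.83% to 5.04% at 3 weeks, and the means of the median UMIs per cell were 6149 and 4926. Their part in the result was not tested. Of 15 immediate early genes 8 were higher (9 under TMM), with Fos at 384, 354 and 163 CPM against 58.2 to 175 CPM, where 1 library overlapped. Xcl1, a chemokine for cross-presenting dendritic cells, was higher by 1.44 ± 0.35 log2 units, and the nonclassical class I gene H2-T23 by 1.59 ± 0.16. Dusp5 and Bcl2l11 were lower by 1.56 ± 0.21 and 1.25 ± 0.20 (-1.56 and -1.25). Both Cd44 and Il2rb were at lower levels there, at 46.7 to 52.7 CPM against 63.0 to 100 CPM and 228 to 322 CPM against 368 to 467 CPM, and carry no test as genes that named the cells.

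Whether the gap between positive and negative cells changed with the file was tested as an interaction. From 1 week to 3 weeks it changed in 284 of 8669 genes (3.28%), larger in 104 and smaller in 180, a balance that TMM turned to 141 and 70. S100a6 gained 2.73 ± 0.23 log2 units: positive cells went from 869, 1202 and 1721 CPM to 258 to 415 CPM, while negative cells went from 166 to 644 CPM to 2.57 to 41.2 CPM. Ifng gained 3.24 ± 0.70 in the same way, and negative cells had 8.0 to 9.87 CPM at 1 week and at most 0.895 CPM at 3 weeks (2 UMIs in all). At 1 week UMIs of both genes were thus counted in cells without a Ccl5 UMI as well, and the part of stray RNA in this was not tested. Histone gene Hist1h2ae differed by -1.97 ± 0.45. In cells thinned to 1000 UMIs the S100a6 difference was 2.44 and passed, while Ifng at 2.46 and Hist1h2ae at -4.55 did not pass.

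Against naive spleen the gap differed in 441 genes at 1 week (5.09%) and in 8 genes at 3 weeks (0.0923%). TMM gave 259 genes at 1 week and turned the balance from 315 larger (3.63%) and 126 smaller (1.45%) to 76 and 183. The 8 genes at 3 weeks were Pik3r1, Fcer1g, Tmsb4x, Ly6a, Ikzf2, Dusp2, Klra7 and Ahnak, and DESeq2 called none. At an unadjusted p below 0.05 edgeR had 513 genes. Ikzf2 in negative cells was 25.2 to 45.1 CPM at 3 weeks and 14.2 to 32.5 CPM in naive spleen, and its gap was larger by 1.02 ± 0.22 log2 units. With cells thinned to 1000 UMIs the Ikzf2 gap was 0.20, and it passed in 17 of 24 alternatives, so the call depends on the setting. Between the libraries labelled 24-week kidney and 3-week spleen 6 genes passed (0.0692%), Il7r, BE692007, Ly6c2, Zfp36l2, Abca3 and Resf1.

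Within single cells of the 4 groups compared, an Ikzf2 UMI was found in a larger share of cells with a Klra7 UMI than of cells without one. The pair was chosen after their levels were seen, and the values are a description. Klra7 UMIs were present in 9.86% ± 2.84 of positive cells at 1 week, 12.6% ± 1.90 at 3 weeks, 14.8% ± 2.98 in the libraries labelled 24-week kidney and 5.11% ± 1.51 in naive spleen (SD over 3, 5, 3 and 5 libraries). Thinned to 1000 UMIs per cell the shares were 5.44%, 5.82%, 3.29% and 1.09%. Of positive cells with Klra7 at 3 weeks, 45 of 84 held Ikzf2 (53.6%), against 16.1% of 583 without Klra7. The shares were 42.5% of 160 against 10.9% at 1 week, 22 of 44 against 18.1% in the libraries labelled 24-week kidney, and 17.9% of 39 against 8.91% in naive spleen. These shares of cells with Ikzf2 were counted without thinning. Cells with and without Klra7 were not matched for UMIs per cell, so the part of depth in the difference was not tested.

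Rejecting recipients offered few cells. In the spleen of the opposite strain combination at 1 week (B6 kidneys in DBA/2J recipients by the study's description of its rejection model, labelled C57BL/6J), 106 of 597 gated cells were Ccl5-positive, 17.8%, and 1 of the 106 held Klra7. The libraries stood at 16.99%, 39.0% and 15.2%, a mean of 23.7%, where the highest had 41 gated cells. With so few cells and another recipient strain, no test set these values against the others.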

How the data were processed

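Spleens and kidneys were profiled by 10x 3′ single-cell RNA sequencing of sorted CD45+ cells. The authors ran Cell Ranger on the mm10 genome (version not given in the sources used here), filtered cells by UMIs, genes and mitochondrial share, clustered them, and deposited raw UMI counts per CD8 T cell matrix. From these deposited counts, cells were gated by UMI and summed per library tag and class, with at least 20 cells per sum. The 6 genes of the rule were left out of the 16479 genes shared by the files, and 4 genes are not reported here. Sums were tested with edgeR 4.0.16 (quasi-likelihood, library as a block between classes) and Benjamini-Hochberg adjustment at 0.05. Library size was the total UMIs of the shared genes without the genes of the rule. Shares were compared by exact permutation tests over libraries. Positive cells held 518033 to 2849432 UMIs of all genes per library, and intervals cover counting error only.

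Named genes were the 12 highest and 12 lowest between classes with at least 50 CPM and 1 direction in every recipient library, the 6 highest and 6 lowest between files without overlap, and the 4 highest and 4 lowest differences of the gap. Genes of fixed lists were named in addition. Members and lists were chosen with earlier results of these data known. No doublet caller was run, and the gate removes cells with Cd4, Cd79a or Lyz2. Alternatives were TMM, DESeq2 1.42.0, no filter on low counts, no block, thinning to 1000 UMIs and leaving out each library. Cells were also taken at 2 or more Ccl5 UMIs, without those over 3 times the median UMIs, or without those with an Ncr1, Klrb1c or Trdc UMI. The last setting keeps NK cells in which these genes were missed. Shares were also read without the exclusion of cells with Cd4, Cd79a or Lyz2. In simulated data, 100% of 2-fold changes between classes in the recipients were recovered, 56% between 3 weeks and 1 week, 61% between the labelled 24-week libraries and 3 weeks, 66% and 69% between naive spleen and 1 or 3 weeks, and 24% for the gap between 3 weeks and 1 week. False calls were 9.09%, 6.02%, 3.66%, 7.30%, 10.6% and 2.56% of all calls in that order. The simulated counts had the same spread setting for every gene and no library effect shared by the classes. Only genes above a set mean level were changed, so recovery was not measured for genes of lower counts. The study's methods count every mouse as its own sample, but no source ties a tag to a mouse, so p-values measure the spread between libraries.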

Additional observations from a re-analysis of the deposited data

Results flagged for a closer look

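In 6 of 89 sets of 5 libraries, 1 library stood apart from the others of its set by Dixon's outlier test, and chance alone gives about 1 in 20. Each set was 1 gene or the share, in 3-week or naive spleen. The test scales a gap to the range of the set, so a flag can mark a small gap. In positive cells at 3 weeks these were Mdn1 at 135 CPM and Tnfaip3 at 225 CPM in library 3, Ifitm1 at 1.47 CPM in library 2 (1 UMI), H2-T23 at 78.1 CPM in library 1 and Ikzf2 at 116 CPM in library 4. In naive spleen it was BE692007 at 231 CPM in library 5.

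The gap between Ccl5-positive and Ccl5-negative cells differed between files for the genes below (log2 difference of the gap, edgeR adjusted p below 0.05). From 1 week to 3 weeks it was larger for Ifng (3.24), Xcl1 (2.92), S100a6 (2.73) and Klrc1 (2.63). It was smaller for Hist1h2ae (-1.97), Hist1h1d (-1.62), Hist1h2ap (-1.46) and Smc2 (-1.16). S100a6 passed in 24 of 24 alternatives, Hist1h2ae in 20 of 23 and the others in 21 of 23, and thinned cells gave 0.71 for Xcl1, -4.55 for Hist1h2ae and -0.47 for Smc2, none of which passed. In the libraries labelled 24-week kidney against 3 weeks it was larger for BE692007 (0.72), Resf1 (0.57), Ly6c2 (0.50) and Il7r (0.46), which passed in 21, 12, 18 and 22 of 24 alternatives.

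At 1 week against naive spleen the gap was larger for Ifitm1 (4.37), Klra7 (3.69), Hist1h2ap (2.21) and Hist1h2ae (2.15), and smaller for Klrc1 (-4.59), S100a6 (-3.08), Klrc2 (-2.24) and S100a4 (-2.08). Of these, S100a6 passed in 24 of 24 alternatives, S100a4 in 22 of 24, Ifitm1 in 20 of 23, Hist1h2ae in 21 of 23 and the others in 22 of 23, and thinned cells gave 0.44 for Hist1h2ae, which did not pass. Some of these rest on counts near 0 in negative cells, where Klrc1 held 71 UMIs at 1 week, 8 at 3 weeks and 1 in naive spleen. At 3 weeks against naive spleen it was larger for Klra7 (3.60), Ikzf2 (1.02), Pik3r1 (0.67) and Ahnak (0.49), and smaller for Ly6a (-1.18). These passed in 14, 17, 18, 11 and 16 of 24 alternatives, and in thinned cells the values for Ikzf2, Pik3r1 and Ahnak were 0.20, 0.15 and 0.29.

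Matrices of accepting recipients outside the comparisons held higher shares of Ccl5-positive cells than naive spleen. The mean was 96.0% in the libraries labelled 24-week recipient spleen, 71.5% in accepted kidneys at 1 week and 97.9% at 3 weeks. Libraries of rejecting spleen stood at 16.99%, 39.0% and 15.2% and those of rejecting kidney at 20.1% and 54.2%, overlapping the naive range of 15.6% to 20.3%. The rejecting spleen library at 39.0% had 41 gated cells, and the rejecting recipients were of another strain, so no test was made.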

How the results depend on the processing

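No named gene and no difference of shares changed sign under an alternative. The balance of higher and lower calls did turn with TMM and DESeq2 for 3 weeks against 1 week, the labelled 24-week libraries against 3 weeks, 1 week against naive spleen, and the gap at 3 weeks against 1 week and at 1 week against naive spleen. Of 97 values of named genes, 68 kept their side of the threshold under every alternative that gave a result for them. In thinned cells 39 values passed and 27 no longer did, and by DESeq2 75 passed and 9 did not. The remaining values had no result in those settings. The 3-week share stayed above the naive share by 10.3 to 11.8 points without any 1 library, and the 1-week share by 18.1 to 26.0 points, where the exact permutation p rose above 0.05 each time, since it was already the smallest possible with all libraries. DESeq2 gave 693 genes higher in positive cells of the recipients, and 593, 629, 404 and 562 called in the 1-week, 3-week, labelled 24-week and naive files. The gap differed by DESeq2 in 144 genes (3 weeks against 1 week), 1 (labelled 24-week against 3 weeks), 169 (1 week against naive) and 0 (3 weeks against naive), and by TMM in 259 (1 week against naive). Between files DESeq2 gave 926 higher at 3 weeks than 1 week, 407 higher and 253 lower in the labelled 24-week libraries, and 1013 lower at 1 week than in naive spleen, and TMM gave 572 higher and 335 lower in the labelled 24-week libraries.

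Without the replicate block, in which both classes come from 1 library, 1007 genes were called at 1 week and 635 in naive spleen, and the gap differed in 13, 0, 27 and 0 genes in the order above. Thinned cells gave 325 higher and 131 lower in the recipients, 519, 205, 127 and 194 by file, gaps differing in 35, 0, 49 and 0 genes, and between files 252 higher and 253 lower (3 weeks against 1 week), 28 and 29 (labelled 24-week), 268 and 238 (1 week against naive) and 14 and 2 (3 weeks against naive). These hold fewer UMIs. Without cells holding an Ncr1, Klrb1c or Trdc UMI 3 gaps differed at 3 weeks against naive. Leaving out 1 library gave 439 to 698 calls in the labelled 24-week file (439 without its library 2), 2 to 8 gaps against 3 weeks (2 without its library 1, 3 without 3-week library 1), and 0 to 9 gaps for 3 weeks against naive (0 without 3-week library 2, 3 without library 5, and 5, 4 and 2 without naive libraries 2, 3 and 4). It gave 143 to 252 higher (143 without library 1) and 447 to 844 lower (487 and 447 without libraries 1 and 3) in the labelled 24-week libraries, and 39 to 94 lower at 3 weeks than naive (94 without 3-week library 1). Other causes were not tested.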
